A study of Mus musculus with 20 samples.

Results

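Ependymal cells and their motile cilia are represented here by 8 genes: Foxj1, Ccdc153, Tmem212, Rsph1, Dynlrb2, Rarres2, Mia and Cfap126. They were chosen by name, as markers of the cells that line the brain ventricles, from the 24513 genes counted. The choice was made with earlier results of these data known. All 8 were counted in each library and passed the filter on low counts, which 16657 genes passed. The measurements are RNA-seq read counts of polyadenylated RNA taken from the hippocampus of male mice aged 9 months, of the strain C57BL/6J by their labels, in 20 libraries that form 4 groups of 5. PS19/C3aR KO libraries carry the tau transgene and the C3aR knockout label, PS19 libraries the transgene alone, C3aR KO libraries the knockout label alone, and WT libraries neither. PS19 mice express mutant human tau from the mouse prion protein promoter, which is active in neurons and not restricted to the hippocampus. C3aR is the receptor, encoded by C3ar1, for a fragment of complement component C3. No label states that every library is a separate animal, and a p-value therefore covers only library-to-library spread, some of which may be technical.

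Ependymal cells form a single layer over the ventricles, and most carry a tuft of motile cilia whose beat moves cerebrospinal fluid. The shaft of such a cilium, the axoneme, is a ring of microtubule doublets with dynein motor arms, radial spokes and a central pair. The transcription factor Foxj1 switches on many axonemal genes, often together with RFX factors, which bind a motif called the X-box. The choroid plexus, which makes the fluid, hangs in the ventricles and has an epithelium that is continuous with the ependyma and also bears cilia. Its best known product is transthyretin, encoded by Ttr. Whole hippocampus lies against the lateral ventricle, so ependyma and choroid plexus are its neighbours.

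RefSeq promoter windows on GRCm38.p6, the assembly also called mm10, were matched for 5 of the 8 genes: Dynlrb2, Ccdc153, Cfap126, Tmem212 and Mia. Each window is 300 bases long and runs from upstream of a gene start to just past it. The windows of Dynlrb2, of Ccdc153 and of the third of 3 starts of Cfap126 are shown because they hold an X-box motif or its arm, marked in capitals, on the gene strand written 5′ to 3′. They lie at chr8:116504765-116505064, chr9:44240427-44240726 and chr1:171122795-171123094, all on the plus strand.
Dynlrb2: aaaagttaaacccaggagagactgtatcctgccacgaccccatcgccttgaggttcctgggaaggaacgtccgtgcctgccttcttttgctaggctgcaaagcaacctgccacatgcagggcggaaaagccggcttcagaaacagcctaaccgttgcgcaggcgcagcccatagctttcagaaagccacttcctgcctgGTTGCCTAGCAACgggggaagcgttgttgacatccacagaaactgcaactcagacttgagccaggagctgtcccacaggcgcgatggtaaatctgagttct
Ccdc153: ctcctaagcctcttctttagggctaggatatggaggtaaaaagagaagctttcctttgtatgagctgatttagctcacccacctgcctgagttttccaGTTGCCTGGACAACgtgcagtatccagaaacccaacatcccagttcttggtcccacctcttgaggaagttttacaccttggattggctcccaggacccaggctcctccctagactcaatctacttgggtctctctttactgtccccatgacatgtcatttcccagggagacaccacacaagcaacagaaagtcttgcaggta
Cfap126: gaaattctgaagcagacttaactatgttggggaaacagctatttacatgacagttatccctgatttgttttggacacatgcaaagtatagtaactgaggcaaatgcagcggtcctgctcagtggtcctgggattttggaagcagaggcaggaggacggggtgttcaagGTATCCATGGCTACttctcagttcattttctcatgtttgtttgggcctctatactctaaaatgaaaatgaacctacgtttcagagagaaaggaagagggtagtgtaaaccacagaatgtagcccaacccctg

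The X-box, searched on both strands as GTNNCC and GGNNAC with a gap of 2 bases, matched in the Cfap126 window 82 bases before the start. It occurs in 1.88% of the 32851 mouse windows. The X-box arm, searched as GTTGCC on both strands, matched 51 bases before the start of Dynlrb2 and 152 bases before that of Ccdc153. These distances are from the RefSeq starts of the windows, which can differ from the GENCODE vM21 gene positions given below. That arm occurs in 12.5% of windows. In both windows it is followed by CAAC, after 3 bases in Dynlrb2 and after 4 in Ccdc153, arrangements that were searched only after the sequences had been seen. These longer forms, which contain the arm, occur in 0.17% of windows with the gap of 3 bases and in 0.247% with that of 4. The forkhead motif GTAAACA, in 3.65% of windows, was not among the letters of the windows of these 5 genes. None of the motifs was in the windows of Tmem212 and Mia, nor in windows 1 and 2 of Cfap126. A match is a string of letters, and binding was not measured.

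Total gene counts came to 33885850 to 47828111 per library. C3ar1, the gene named by the knockout label, averaged 17.2 ± 1.36 CPM (reads scaled to a common library total) in PS19/C3aR KO, 10.5 ± 3.58 in PS19, 15.97 ± 1.57 in C3aR KO and 2.03 ± 0.266 in WT libraries (SD, n = 5 each). It was thus higher, rather than lower, where the label says C3aR KO, and directions that rest on that label are given for the libraries so labelled. Ttr varied 434-fold, from 9.70 CPM in C3aR KO 2 to 4213 CPM in PS19 1, and took low and high values in every genotype. Reads of the ribosomal RNA precursor Rn45s made up 0.873 to 4.48% of gene counts and averaged 3.59% in WT libraries, the highest of the 4 groups.

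Per kilobase of exon, Foxj1 was the most abundant of the 8 genes, at 5.69 ± 3.12 CPM per kilobase (SD over 20 libraries), followed by Rsph1 at 3.19 ± 1.40. Tmem212 had 2.17 ± 1.55, Dynlrb2 2.09 ± 1.37, Mia 1.66 ± 0.913, Rarres2 1.49 ± 0.552, Ccdc153 1.36 ± 0.944 and Cfap126 1.27 ± 0.798 CPM per kilobase. Foxj1 and Rsph1 differed by more than the SD of Rsph1 but less than that of Foxj1. Later neighbours in this order differed by less than the SD of either gene, and the order was not tested. All 8 averaged far below Ttr, at 1182 ± 1310 CPM per kilobase. In C3aR KO 2, the library with the least Ttr, Foxj1 in CPM nevertheless reached 61.5% of Ttr. Their read counts per library ran from 3 for Tmem212 in WT 2 to 1415 for Foxj1.

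Foxj1, the forkhead transcription factor of motile ciliated cells, lies at chr11:116330704-116335399. Its level was 18.9, 6.21, 12.1, 7.88 and 27.6 CPM in PS19/C3aR KO libraries 1 to 5. PS19 libraries had 32.9, 18.9, 18.6, 20.9 and 28.2 CPM, and C3aR KO libraries 15.2, 5.97, 5.99, 13.2 and 7.59 CPM. WT libraries had 17.4, 2.77, 12.2, 10.5 and 15.4 CPM. The lowest PS19 library exceeded the highest WT and the highest C3aR KO library, while the PS19/C3aR KO libraries spread across the range of the other groups.

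Cfap126, also called Flattop, codes for a microtubule-associated protein needed for basal body positioning in mouse multiciliated cells, and lies at chr1:171113918-171126967. It had 3.87, 0.839, 1.36, 1.09 and 4.18 CPM in PS19/C3aR KO libraries and 5.39, 2.76, 1.81, 2.19 and 4.73 CPM in PS19 libraries. C3aR KO libraries had 2.93, 0.597, 0.599, 2.31 and 1.17 CPM, and WT libraries 2.86, 0.441, 2.14, 1.79 and 1.86 CPM. The groups overlapped, and in 3 of the 4 groups the library with the highest Ttr also had the highest Cfap126. Dynlrb2 codes for a roadblock-type dynein light chain and lies at chr8:116504974-116515915. It had 1.60, 0.240, 0.797, 0.557 and 2.496 CPM in PS19/C3aR KO libraries and 2.93, 1.16, 0.881, 1.44 and 2.49 CPM in PS19 libraries. C3aR KO libraries had 1.44, 0.311, 0.300, 1.03 and 0.753 CPM, and WT libraries 1.39, 0.269, 1.26, 0.794 and 1.11 CPM. The same libraries were low for Dynlrb2 as for Cfap126, among them WT 2, C3aR KO 2 and C3aR KO 3. Its paralog Dynlrb1, a subunit of dyneins in all cells, stayed between 70.7 and 85.7 CPM in the 20 libraries, whereas Dynlrb2 spanned a 12.2-fold range.

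Rsph1, a protein of the radial spoke head, lies at chr17:31255019-31277383. It ranged over 1.59 to 8.22 CPM in PS19/C3aR KO, 3.60 to 8.94 in PS19, 2.93 to 4.86 in C3aR KO and 2.30 to 5.48 in WT libraries, the second narrowest spread of the 8 genes. Ccdc153 codes for a coiled-coil protein that marks ependymal cells, and lies at chr9:44240676-44247306. It had 2.53, 0.623, 1.89, 0.471 and 7.22 CPM in PS19/C3aR KO libraries and 6.04, 2.48, 2.59, 3.12 and 5.71 CPM in PS19 libraries. C3aR KO libraries had 3.06, 1.17, 0.844, 2.53 and 1.74 CPM, and WT libraries 4.42, 0.318, 2.49, 1.69 and 4.40 CPM. Both WT and PS19/C3aR KO libraries thus contained the extremes, with a 13.9-fold range in WT and a 15.3-fold range in PS19/C3aR KO.

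Tmem212, a membrane protein gene at chr3:27866066-27896368, varied most, over a 55.4-fold range. Its level was 1.26, 0.144, 1.03, 0.193 and 2.90 CPM in PS19/C3aR KO libraries and 4.07, 1.54, 1.81, 2.11 and 2.92 CPM in PS19 libraries. C3aR KO libraries had 1.80, 0.571, 0.354, 1.15 and 0.774 CPM, and WT libraries 2.95, 0.0734, 1.57, 1.15 and 2.64 CPM. The lowest value rests on 3 reads, and the groups overlapped. Ccdc153 and Tmem212 were the most alike pair of the 8, with a Spearman rho of 0.968 over the 20 libraries.

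The remaining pair of genes code for secreted proteins. Rarres2 codes for chemerin, a chemoattractant for leukocytes, and lies at chr6:48569696-48572789. It had the narrowest range, 2.55 to 6.00 CPM in PS19/C3aR KO, 3.19 to 7.13 in PS19, 2.15 to 3.06 in C3aR KO and 2.55 to 4.93 in WT libraries. Of its exon bases in GENCODE vM21, 33.6% lie over Lrrc61 on the opposite strand, and whether counting used strand is not stated in the labels, which means that reads of these genes may be mixed. Mia, at chr7:27179742-27181157, codes for a small protein first known from melanoma and cartilage. It ranged over 0.335 to 3.15 CPM in PS19/C3aR KO, 1.15 to 3.74 in PS19, 0.572 to 2.18 in C3aR KO and 0.587 to 1.86 in WT libraries. Of its exon bases, 41.2% are shared with the readthrough gene Gm21983 on the same strand.

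**Figure D1:**
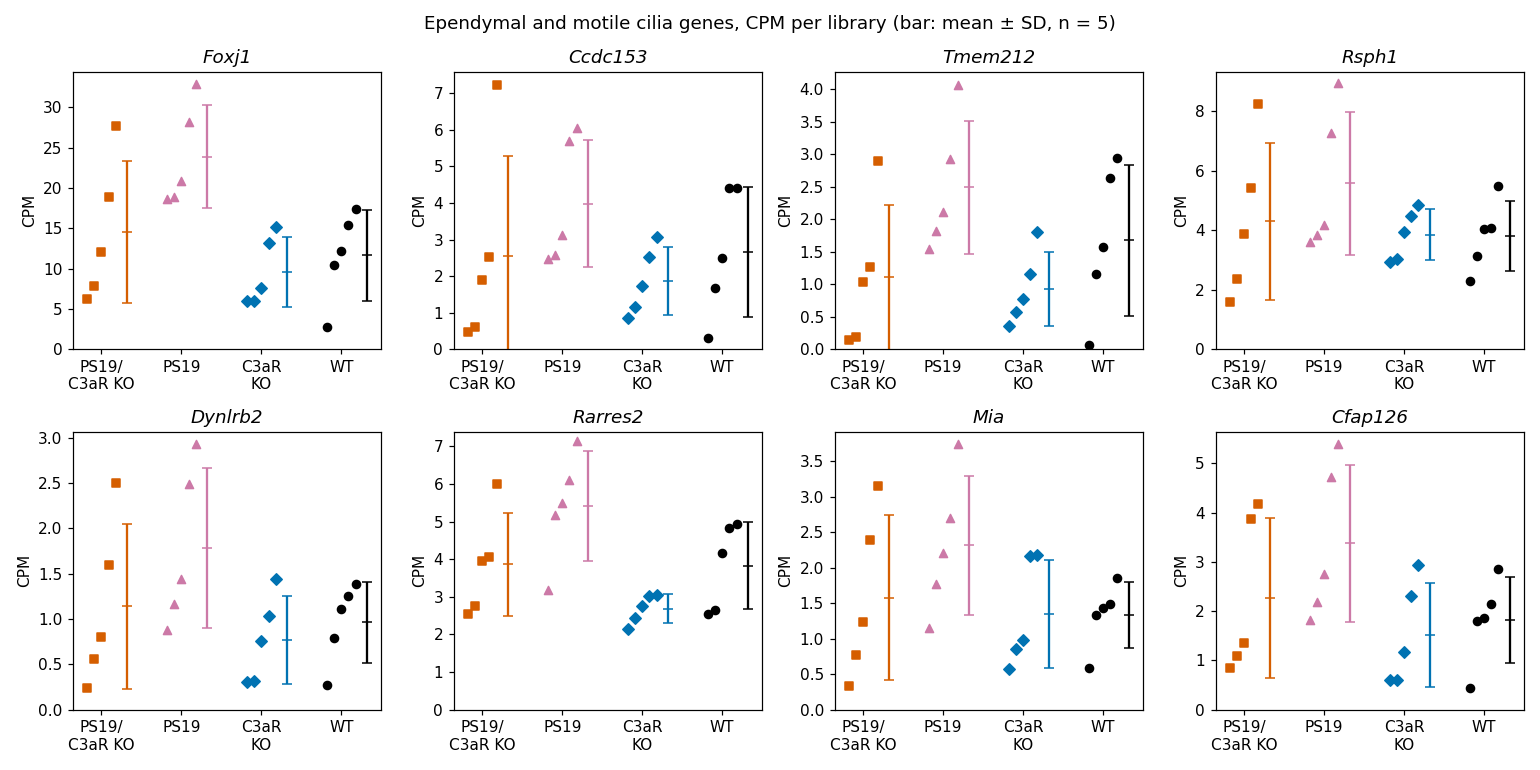
Level of each of the 8 genes in CPM (linear axis) in the 20 libraries, by genotype, with points sorted by level within a group and bars for the mean ± SD (n = 5; bars that reach below 0 end at the axis). The PS19 mean was the highest for all 8 genes, and in the 4 pairwise comparisons the groups overlapped for every gene except Foxj1 in PS19 against WT.

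The mean was highest in PS19 libraries for 8 of 8 genes and lowest in libraries labelled C3aR KO for 6 of 8, with WT lowest for Rsph1 and Mia. Foxj1 averaged 14.5 ± 8.81 CPM in PS19/C3aR KO, 23.9 ± 6.34 in PS19, 9.58 ± 4.31 in C3aR KO and 11.7 ± 5.64 in WT libraries (SD, n = 5 each). The means of Cfap126 were 2.27 ± 1.62, 3.37 ± 1.59, 1.52 ± 1.05 and 1.82 ± 0.879 CPM in PS19/C3aR KO, PS19, C3aR KO and WT libraries. Those of Rarres2 were 3.87 ± 1.37, 5.42 ± 1.45, 2.68 ± 0.387 and 3.83 ± 1.16 CPM in the same groups. In most cases the SD was of the size of the difference between the means. In whole tissue, fewer ependymal cells and less of these RNAs per cell cannot be told apart.

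PS19 libraries were compared with WT libraries to see whether the tau transgene goes with the level of these genes. The 8 genes had log2 fold changes (log2 differences between fitted group levels) of 0.44 to 0.97 with a median of 0.62, against a median of -0.0068 over all genes tested. None passed the test (edgeR quasi-likelihood, Benjamini-Hochberg adjusted p of 0.169 to 0.712), where 10.8% of all genes passed. Of the 8, 1 had an unadjusted p below 0.05, and DESeq2 called 0. That gene was Foxj1, with a log2 difference of 0.97 (SE 0.43) and an edgeR adjusted p of 0.169. Its PS19 and WT libraries did not overlap, a separation in the same direction seen for 8.11% of all genes tested. The next in size were Cfap126 at 0.83 (SE 0.54) and Dynlrb2 at 0.83 (SE 0.55). With 2 SE to either side, the interval for Tmem212, which had the largest SE of the 8, ran from -0.85 to 1.86. It thus held 0 and large increases alike. That for Rarres2, with the smallest SE, ran from -0.060 to 0.94. All 8 values stayed above 0 without each library in turn, with a median between 0.42 without PS19 1 and 0.85 without WT 1, and Tmem212 between 0.19 and 0.81.

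Ttr itself had a log2 difference of 1.05 in this comparison (SE 1.57, edgeR adjusted p = 0.743). Of 29 choroid plexus epithelium genes tested, Ttr among them, 29 had a fold change above 0 and none passed in edgeR or DESeq2 or had an unadjusted p below 0.05. Without Ttr their list summed to 185 to 1045 CPM in PS19 libraries and 163 to 609 CPM in WT libraries, and of the list's defining markers only Otx2os1 and Slco1a5 were at 0 in any library. With Ttr as a covariate, the log2 fold changes of the 8 genes fell to between 0.18 and 0.76, and their median was 0.36. Foxj1 was then 0.76 (SE 0.28) with an edgeR adjusted p of 0.0845. The Rn45s share, highest on average in WT libraries, moved them the other way: once it was the covariate, they lay between 0.68 and 1.44 with a median of 1.26, and 0 passed (Foxj1 1.44, edgeR adjusted p = 0.144). Astrocyte markers also differed in this contrast, with 10 of 18 higher and 0 lower in PS19 libraries, among them Gfap at a log2 difference of 2.42 (SE 0.29, edgeR adjusted p = 0.000163). Vim, which ependymal cells express too, had a log2 difference of 1.73 (SE 0.27, edgeR adjusted p = 0.000584). Their part in the values of the 8 genes was not tested.

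Libraries labelled C3aR KO were compared with WT libraries to see what the knockout label goes with in the absence of the transgene. All 8 log2 fold changes were below 0, from -0.88 for Tmem212 to -0.019 for Mia, with a median of -0.33. None passed the edgeR test, where 0.06% of all genes did, 1 had an unadjusted p below 0.05, and DESeq2 called 0. Rarres2 was that gene, at -0.55 (SE 0.25, edgeR adjusted p = 0.806). With Ttr as a covariate the signs of Rsph1 and Mia turned, to 0.090 and 0.063. When the Rn45s share was the covariate instead, 6 of the 8 signs turned, among them that of Rsph1 to 0.35 and that of Mia to 0.32.

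PS19/C3aR KO libraries were compared with PS19 libraries to see what the knockout label goes with in transgenic mice. All 8 log2 fold changes were below 0, from -1.18 for Tmem212 (SE 0.70) to -0.38 for Rsph1 (SE 0.37), with a median of -0.62. None passed the edgeR test or had an unadjusted p below 0.05, DESeq2 called 0, and 0.252% of all genes passed the edgeR test. Foxj1 stood at -0.72 (SE 0.43, edgeR adjusted p = 0.47). The size rested on single libraries, though the 8 values stayed below 0 without each in turn: the median was -1.05 without PS19/C3aR KO 5, -0.39 without PS19/C3aR KO 2, -0.39 without PS19/C3aR KO 4 and -0.40 without PS19 1. The PS19/C3aR KO libraries numbered 1 and 5 lay within the range of PS19 libraries for most of the 8 genes. Those numbered 2 and 4 lay below every PS19 library for all 8. With Ttr as a covariate the 8 values lay between -1.07 and -0.22, with a median of -0.43. When the Rn45s share was the covariate instead, they lay between -1.44 and -0.51, with a median of -0.78. Of 29 choroid plexus epithelium genes tested, 0 had a fold change above 0 in this comparison, and 0 passed in edgeR. Their part in the values of the 8 genes was not tested.

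Against libraries labelled C3aR KO, the PS19/C3aR KO libraries gave log2 fold changes of 0.13 to 0.57 with a median of 0.46. None passed the edgeR test or had an unadjusted p below 0.05, DESeq2 called 0, and 0.006% of all genes passed the edgeR test. With Ttr as a covariate the signs of Tmem212, Rsph1 and Mia turned, to -0.099, -0.055 and -0.076. Without PS19/C3aR KO 5 the median of the 8 was -0.13. The interaction, which asks whether the transgene's difference depends on the knockout label, was between -0.55 and 0.064, and all 8 adjusted p-values were 1 in edgeR, where 0.012% of all genes passed. None had an unadjusted p below 0.05 for the interaction, and DESeq2 called 0. The comparisons share groups, so their signs are not separate pieces of evidence. A high PS19 group or a low C3aR KO group enters more than 1 of them. The signs of the 8 genes within a comparison are not separate either. Their levels rose and fell together over the libraries, with a median Spearman rho of 0.887 over their 28 pairs.

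**Figure D2:**
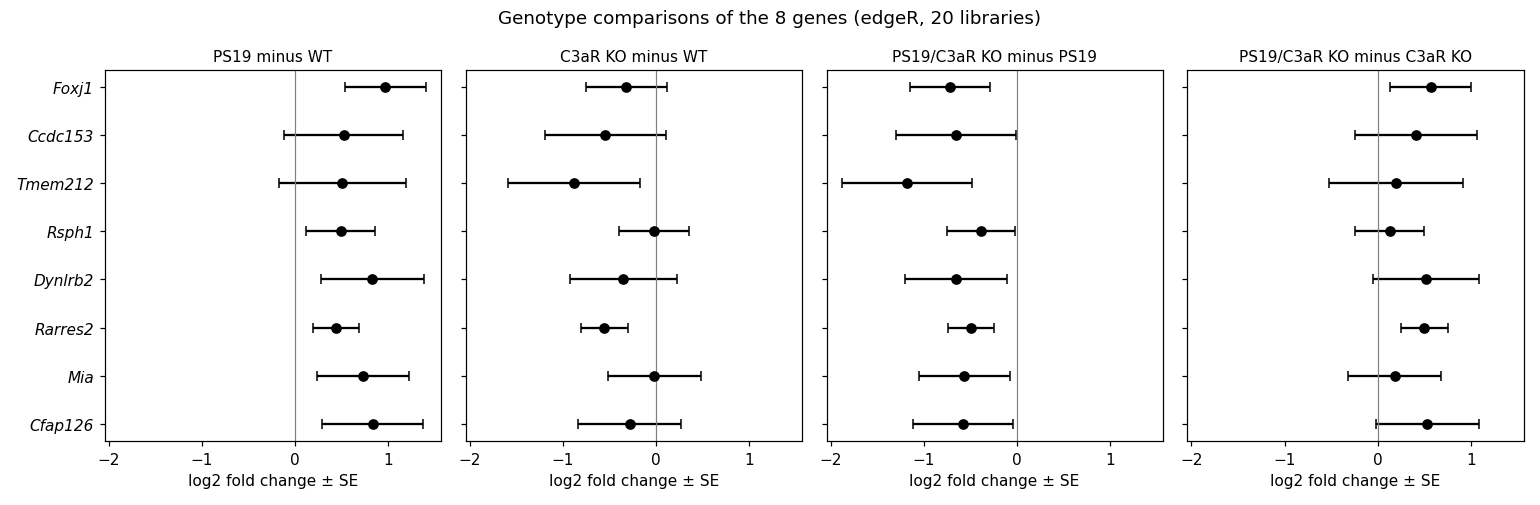
Log2 fold changes of the 8 genes in the 4 pairwise genotype comparisons, as points with bars of 1 SE from the edgeR fit to 20 libraries, with the vertical line at no difference. All values lie above 0 in PS19 minus WT, between 0.44 and 0.97, and below 0 in PS19/C3aR KO minus PS19, between -1.18 and -0.38, and none passed the adjusted test.

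Across the 20 libraries most of the 8 genes were higher where Ttr was higher. With genotype in the fit, 7 of 8 rose with Ttr (edgeR adjusted p below 0.05), where 10.1% of the 16656 other genes rose and 19.2% changed in either direction. The slope is the change in log2 level for each doubling of Ttr. It was 0.25 for Cfap126 (SE 0.032, edgeR adjusted p = 2.96e-05), 0.24 for Dynlrb2 (SE 0.040, edgeR adjusted p = 0.000464) and 0.22 for Mia (SE 0.033, edgeR adjusted p = 0.000234). Ccdc153 and Tmem212 had slopes of 0.21 (SE 0.061) and 0.22 (SE 0.067), with edgeR adjusted p-values of 0.0201 and 0.0291. Foxj1 rose by 0.17 (SE 0.033, edgeR adjusted p = 0.00181) and Rsph1 by 0.13 (SE 0.031, edgeR adjusted p = 0.00574). Rarres2 did not pass, at 0.054 (SE 0.027, edgeR adjusted p = 0.17), nor did Dynlrb1, at -0.0087 (edgeR adjusted p = 0.192). The median of the 8 slopes was 0.21, so they changed far less than Ttr itself, whose slope on this scale is 1 by construction.

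Single libraries decided the calls of the pair with the largest errors. Tmem212 lost its call without WT 2 (edgeR adjusted p = 0.0566), without C3aR KO 1 (0.0647), without PS19/C3aR KO 2 (0.0666) and without PS19/C3aR KO 5 (0.0787), and also once the Rn45s share was in the fit (0.0595). Ccdc153 lost its call without PS19/C3aR KO 2 (edgeR adjusted p = 0.0511) and without PS19/C3aR KO 5 (0.0632). The other 5 calls held without each library in turn. With the replicate number also in the fit, Foxj1 (edgeR adjusted p = 0.0661) and Rsph1 (0.0632) were not called, nor were Ccdc153 and Tmem212.

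The correlation of log2 levels, which leaves genotype out, gave Pearson r of 0.882 for Cfap126, 0.847 for Mia, 0.838 for Dynlrb2, 0.758 for Foxj1, 0.698 for Rsph1, 0.683 for Ccdc153, 0.677 for Tmem212 and 0.468 for Rarres2 (n = 20 libraries). Spearman rho in the same order was 0.923, 0.887, 0.859, 0.795, 0.847, 0.734, 0.713 and 0.556. In the 2-sided permutation tests of 100000 resamples, adjusted over all 16656 genes, 7 of 8 passed for both measures, all of them positive, where 7.8% of genes passed with a positive Pearson r and 6.84% with a positive Spearman rho. For Rarres2 the permutation p was 0.0397 (adjusted 0.133) for r and 0.0124 (adjusted 0.0697) for rho. The permutation p of Cfap126 and Mia was 1e-05 for both measures, the smallest these resamples can give. Without the pair of libraries farthest from the median of Ttr, WT 2 and C3aR KO 2, r was 0.838 for Cfap126 and 0.677 for Foxj1. In that setting r fell to 0.603 for Ccdc153 and 0.598 for Tmem212, which no longer passed (permutation adjusted p = 0.0896 and 0.0907).

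**Figure D3:**
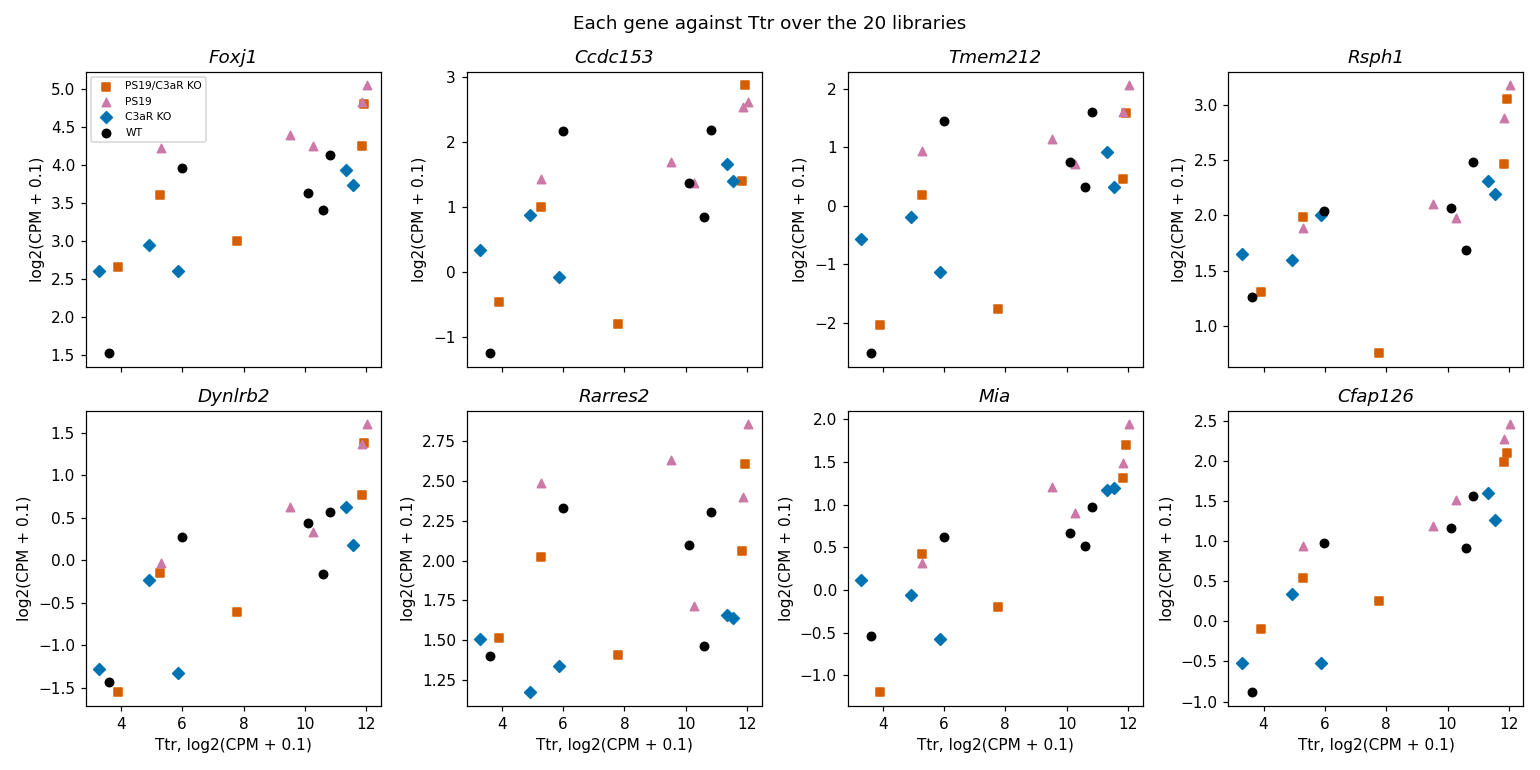
Each of the 8 genes (vertical axis, log2 of CPM + 0.1) against Ttr (horizontal axis, log2 of CPM + 0.1) in the 20 libraries, 1 point per library, with colour and shape for genotype. Pearson r runs from 0.468 for Rarres2 to 0.882 for Cfap126.

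Single libraries departed from the relation. WT 5 had a Ttr level of 63.3 CPM and a summed level of the 8 genes of 35.8 CPM, above the median of 32.2 CPM, and PS19 3 had 39.1 CPM of Ttr and a sum of 35.9 CPM. WT 4 went the other way, with 1555 CPM of Ttr, above the median of 918 CPM, and a sum of 23.0 CPM. PS19/C3aR KO 4 had 219 CPM of Ttr, below that median but above WT 5 and PS19 3, and a sum of 15.1 CPM. Not all of the genes took part. In WT 5, 6 of the 8 lay above their own 20-library median, with Mia and Cfap126 below it. In PS19 3, 4 did, with Rsph1, Dynlrb2, Mia and Cfap126 below it. In WT 4 and in PS19/C3aR KO 4, 0 did. Foxj1 made up 15.4 of the 35.8 CPM in WT 5 and 18.6 of the 35.9 CPM in PS19 3. As a share of Ttr, Foxj1 ran from 0.438% in C3aR KO 4 to 61.5% in C3aR KO 2, a 140-fold range, so the genes and Ttr were not in a fixed ratio.

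**Figure D4:**
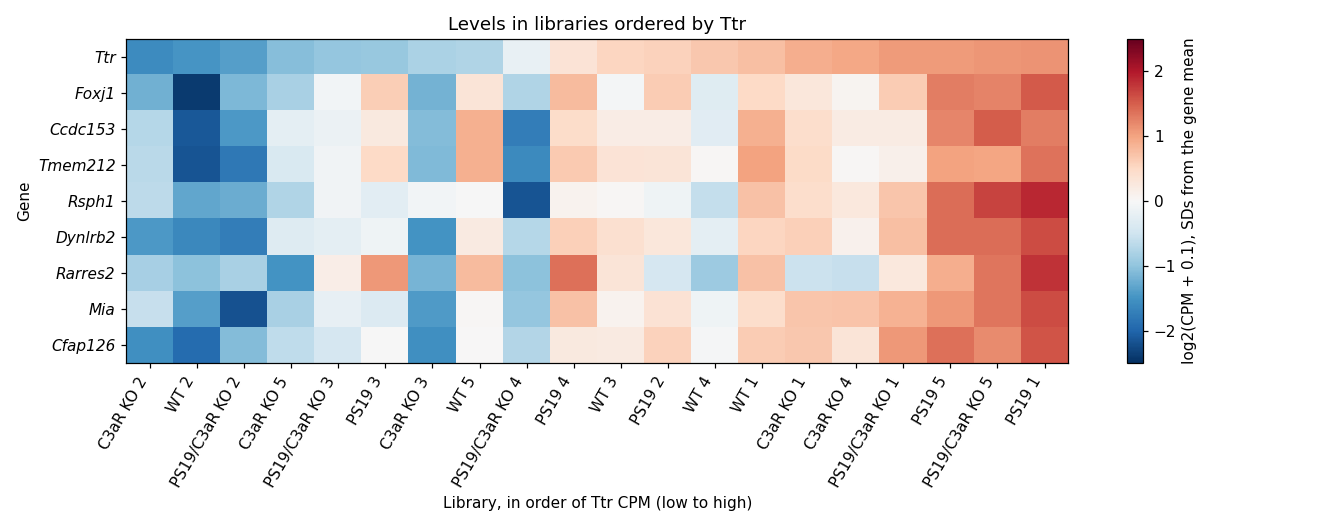
Levels of Ttr and the 8 genes in the 20 libraries, ordered from low to high Ttr, each as the number of SDs from the gene's mean of log2(CPM + 0.1). In WT 5 and PS19 3, with Ttr of 63.3 and 39.1 CPM, 6 and 4 of the 8 genes lie above their 20-library median. In WT 4, with 1555 CPM, and in PS19/C3aR KO 4, with 219 CPM, 0 do.

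Lists of related genes, chosen with earlier results of these data known, were placed beside the 8. Of the choroid plexus epithelium genes 28 of 28 rose with Ttr, with slopes of 0.16 to 0.91 and a median of 0.55. They summed, without Ttr, to 141 to 1116 CPM in PS19/C3aR KO, 185 to 1045 in PS19, 132 to 916 in C3aR KO and 163 to 609 in WT libraries. Slc4a5, a bicarbonate transporter, had a slope of 0.87 (SE 0.023, edgeR adjusted p = 8.24e-15) and Kcne2, a potassium channel subunit, 0.82 (SE 0.026, edgeR adjusted p = 1.2e-13). The largest slope of the 8 genes, 0.25 for Cfap126, lay below the median of that list. Fibroblast markers of the meninges and vessels rose in 2 of 20 cases, Igf2 and Dpep1, with a median slope of 0.0031, and summed to 215 to 686 CPM over the libraries. Of the astrocyte markers 2 of 18 fell, Aldoc and Aldh1l1, with a median slope of -0.013, and the other 16 were not called. The part of choroid plexus RNA in the levels of the 8 genes was not tested.

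Other genes of motile cilia followed Ttr in part. Of dynein arm and assembly genes 13 of 28 rose and 0 fell, with a median slope of 0.040. Dnah9, a heavy chain of the outer arm, had a slope of 0.14 (SE 0.016, edgeR adjusted p = 1.24e-05), and Dnah11, also an outer arm heavy chain, 0.32 (SE 0.051, edgeR adjusted p = 0.000281). Of radial spoke, central pair and axonemal microtubule genes 27 of 48 rose and 0 fell, with a median of 0.084. Spag16, a central pair protein, had a slope of 0.34 (SE 0.040, edgeR adjusted p = 1.38e-05) and Spef2 0.20 (SE 0.023, edgeR adjusted p = 7.75e-06). Of 35 other ependymal markers 24 rose and 0 fell, with a median of 0.12, led by Calml4 at 0.48 (SE 0.043, edgeR adjusted p = 5.2e-07).

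Among regulators of multiciliated cell differentiation, 4 of 17 rose and 0 fell, with a median of 0.019. The 4 were Gmnc, which starts the multiciliated programme, at 0.16 (SE 0.021), Trp73, which acts upstream of Foxj1, at 0.16 (SE 0.022), Rfx2, an X-box factor, at 0.059 (SE 0.015) and Myb at 0.11 (SE 0.036). Intraflagellar transport and BBSome genes serve primary cilia of most cells as well as motile cilia. Of these 2 of 41 rose and 1 fell, with a median of -0.0010 and all slopes between -0.022 and 0.045. They include Wdr35 at 0.027 (SE 0.0053) and Bbs2 at -0.020 (SE 0.0051). Over all genes tested the median slope was -0.0014.

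**Figure D5:**
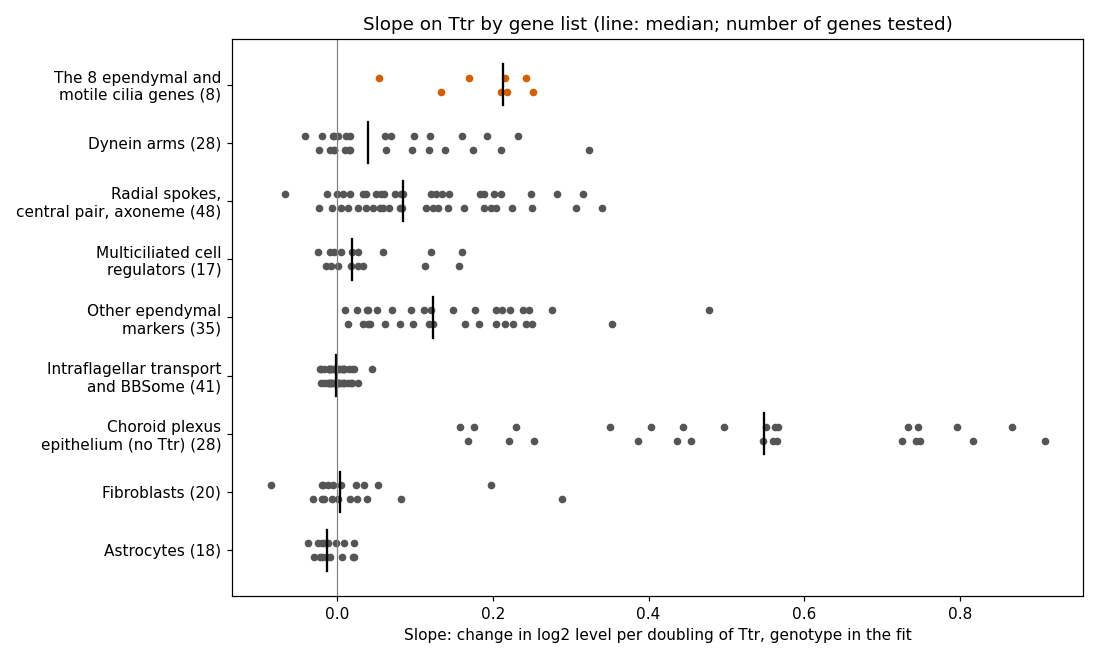
Slope on Ttr (change in log2 level per doubling of Ttr, genotype in the edgeR fit) of each gene tested, by list, with 1 point per gene, a black line at the list's median and the number of genes in brackets. The 8 genes lie between 0.054 and 0.25, the choroid plexus epithelium genes between 0.16 and 0.91, and intraflagellar transport and BBSome genes between -0.022 and 0.045.

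In the comparison of PS19 with WT, where 10.8% of all genes passed, edgeR called 3 of 28 dynein arm and assembly genes, 1 of 17 regulators and 1 of 41 intraflagellar transport and BBSome genes. These counts are near or below that share. It called 0 of 48 radial spoke, central pair and axonemal genes, of which 0 had an unadjusted p below 0.05 and DESeq2 called 0. It called 0 of 35 other ependymal markers, of which 5 had an unadjusted p below 0.05 and DESeq2 called 1. Zmynd10, a dynein arm assembly factor, averaged 6.16 ± 1.31 CPM in PS19/C3aR KO, 6.11 ± 1.29 in PS19, 6.44 ± 0.804 in C3aR KO and 3.63 ± 0.621 in WT libraries, so WT was the low group. Its log2 difference in PS19 minus WT was 0.69 (SE 0.17, edgeR adjusted p = 0.0114). Dnaic2, an intermediate chain of the outer arm, averaged 3.32 ± 1.22 CPM in PS19/C3aR KO, 4.53 ± 1.04 in PS19, 2.45 ± 0.737 in C3aR KO and 2.38 ± 0.431 in WT libraries, and its log2 difference in PS19 minus WT was 0.87 (SE 0.25, edgeR adjusted p = 0.0323). Dnal1, a light chain that was far more abundant, was lower by a small amount, with a log2 difference of -0.16 (SE 0.046, edgeR adjusted p = 0.0331). Ccp110, a centriole cap protein present in many cell types, averaged 79.2 ± 6.90 CPM in PS19/C3aR KO, 96.0 ± 5.82 in PS19, 72.7 ± 7.42 in C3aR KO and 69.9 ± 5.10 in WT libraries, and its log2 difference in PS19 minus WT was 0.40 (SE 0.071, edgeR adjusted p = 0.00136). Kifap3, a subunit of the anterograde transport motor, had a log2 difference of -0.14 (SE 0.043, edgeR adjusted p = 0.0379).

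The 8 genes also rose and fell together from library to library. Over their 28 pairs Spearman rho was 0.726 to 0.968 with a median of 0.887, and after removing genotype means Pearson r was 0.618 to 0.982. These correlations describe 20 libraries that share their cells and depth between genes, and carry no test. After Ccdc153 with Tmem212, the closest pairs were Dynlrb2 with Mia at 0.964 and Dynlrb2 with Cfap126 at 0.959. Rarres2 was in each of the 3 loosest, with Rsph1 at 0.726, with Cfap126 at 0.738 and with Mia at 0.756.

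The genes most like the mean of the 8 were Ccdc146 (Spearman rho 0.971 over 20 libraries), Lrrc74b (0.967), Dnali1 (0.962), Ppp1r32 (0.962) and Cdhr3 (0.961). They were followed by Cfap43 (0.956), Ccdc40 (0.955), Hydin (0.955), Spata18 (0.949) and Armc4 (0.943). Of 16649 genes outside the 8, 46 reached a rho of 0.9 and 205 a rho of 0.8, while Dynlrb1 had -0.263. Gene by gene, Foxj1 was most like Dnali1 (0.979), Ccdc153 most like Cdhr3 (0.970), Tmem212 most like Zfp474 (0.971) and Rsph1 most like Dnah11 (0.947). Dynlrb2 and Mia were both most like Lrrc23 (0.968 and 0.980), Cfap126 was most like Spag16 (0.986) and Rarres2 most like Lect1 (0.955).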

How the data were processed

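Per the labels' protocols, TopHat 2.0.9 was the aligner, mm10 the genome, and HTSeq counted the reads on the union of exons of each gene. The deposited values are the authors' raw read counts per gene, with no normalization. DESeq2 is named, without a role, per the submitters' processing notes. The annotation release is not given in the sources used here. The 5 summary lines of each file were left out, and pairs that met no exon were 17.4 to 25.4% of uniquely aligned pairs.

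CPM was computed from the gene total of each library. Tests used edgeR 4.0.16 (R 4.3.3): a quasi-likelihood fit to all 20 libraries with TMM normalization, after filterByExpr (minimum count 10, minimum total 15), with Benjamini-Hochberg adjustment over all genes kept and a threshold of 0.05. The slope added log2(Ttr CPM + 0.1) to genotype. DESeq2 1.42.0, RLE size factors, no filter, a replicate block, covariates and the omission of each library were alternatives. Both scripts were tested on simulated data. Libraries of a group differed by more than sampling noise (chi-square per degree of freedom 8.62 to 104). The 8 genes and all lists were chosen with earlier results of these data known. Of each list, up to 4 genes with the lowest p for the slope and up to 4 for genotype could be named; for likeness, the top 3 of each gene and the top 10 of their mean.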

Additional observations from a re-analysis of the deposited data

How the results depend on the processing

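The 8 genes had 3 to 1415 reads per library, and the libraries of 1 group differed up to 40.2-fold (Tmem212 in WT), which limits what a comparison of 5 with 5 libraries can detect. RLE size factors, DESeq2 and no filter on low counts changed no sign of a genotype fold change and no call of the 8 genes. The labels number the libraries 1 to 5 in every genotype. Same-numbered libraries of different genotypes had deviations correlated above 0.1 in 16 of 30 pairs, against 38 of 120 pairs with different numbers. The medians were 0.15 and -0.041, and 6 of 20 libraries correlated best with their own number. Ttr went with the number in part. Libraries numbered 1 had 1825.4 to 4212.8 CPM of Ttr. WT 2, C3aR KO 2 and PS19/C3aR KO 2 had the lowest Ttr of all libraries, but PS19 2 had 1236 CPM. Libraries numbered 3 had 38.541 to 57.923 CPM except WT 3, with 1105.3 CPM. Those numbered 4 had 219.06 to 3005.5 CPM. Number 5 held both low and high values. No label names a shared animal or batch, so the main fit left the numbers out. Whether they mark shared handling was not tested. With the replicate block, 1 of the 8 genes was called in PS19 minus WT, Foxj1 at 1.11 (SE 0.31, edgeR adjusted p = 0.027), where 2105 of 16657 genes (12.6%) were called, and 3 were called for the Ttr slope, where 378 of 16656 genes (2.27%) were. In that fit Foxj1 (edgeR adjusted p = 0.0661), Rsph1 (0.0632), Ccdc153 (0.167) and Tmem212 (0.28) were not called for the slope.

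Signs turned only for values that did not pass the test. With the block, the log2 fold change was 0.050 for Rsph1 in C3aR KO minus WT, -0.081 for Tmem212 and -0.024 for Rsph1 in PS19/C3aR KO minus C3aR KO, and -0.0087 for the Rarres2 interaction. With Ttr as a covariate it was 0.090 for Rsph1 and 0.063 for Mia in C3aR KO minus WT, and -0.099 for Tmem212, -0.055 for Rsph1 and -0.076 for Mia in the comparison of PS19/C3aR KO with C3aR KO. With the Rn45s share it was 0.091 for Foxj1, 0.10 for Ccdc153, 0.35 for Rsph1, 0.13 for Dynlrb2, 0.32 for Mia and 0.21 for Cfap126 in C3aR KO minus WT, and -0.23 for the Rarres2 interaction. The cause was not tested.

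With each library left out in turn, Rsph1 ranged from -0.16 to 0.16 and Mia from -0.27 to 0.18 in C3aR KO minus WT. In PS19/C3aR KO minus C3aR KO the ranges were -0.51 to 0.69 for Ccdc153, -0.59 to 0.60 for Tmem212, -0.26 to 0.35 for Rsph1, -0.012 to 0.89 for Dynlrb2 and -0.25 to 0.44 for Mia. Those of the interaction were -0.16 to 0.19 for Rarres2, -1.03 to 0.18 for Ccdc153, -1.09 to 0.093 for Tmem212, -0.84 to 0.061 for Dynlrb2 and -0.65 to 0.10 for Cfap126. Of the 8 genes, 5 to 7 were called for the Ttr slope.

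Splits chosen after seeing the data gave 0 of 8 correlations with Ttr past the adjusted permutation test in the 8 libraries with the lowest Ttr and 2 of 8 in the other 12, settings with fewer libraries, where Pearson r was 0.442 to 0.837 and 0.432 to 0.889. Counts over all genes also moved. PS19 minus WT gave 1803 genes, 431 with the Rn45s share, and 1190 to 2240 without single libraries, lowest without PS19 3 (1190) and WT 4 (1201). C3aR KO minus WT gave 10, 58 with DESeq2, 3 with the Rn45s share and 5 without C3aR KO 5. PS19/C3aR KO minus PS19 gave 42, 443 with DESeq2, 212 with the block, 9 with the Rn45s share, and 6 without PS19/C3aR KO 5 to 481 without PS19 5. PS19/C3aR KO minus C3aR KO gave 1, 158 with DESeq2, 22 with the block and up to 105 without PS19 5. The interaction gave 2, 3 with DESeq2 and 5 without PS19 5. The Ttr slope gave 3199, 378 with the block and 2052 without WT 2.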
